A study of Mus musculus with 8 samples.

Results

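The genes described here make and turn over ceramide, the core of sphingolipids, in the esophagus of wild-type mice that drank a detergent. The set holds 10 named genes, Sptlc1, Sptlc2, Sptlc3, Cers3, Cers4, Degs1, Degs2, Ugcg, Smpd1 and Asah1, out of 49315 gene identifiers in the count tables, and each was found by its symbol. RNA of the whole organ was sequenced in 3 libraries from mice given 0.5% sodium dodecyl sulfate (SDS) in the drinking water, sampled at day 14, and in 5 libraries from mice given untreated water, also labelled day 14. The comparison addressed what this anionic detergent does to a squamous epithelium that faces the lumen. The labels give no strain, sex or age and do not state how libraries map to animals, so each p-value reflects the spread among these libraries alone, and that spread may be technical.

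Sphingolipid synthesis starts in the endoplasmic reticulum, where serine palmitoyltransferase joins serine to a fatty acyl-CoA. The product is reduced, ceramide synthases add a second fatty chain to give dihydroceramide, and a desaturase turns this into ceramide. Ceramide then becomes glucosylceramide or sphingomyelin, or is cut to sphingosine. In stratified epithelia, ceramides with very long chains fill the space between the outer cells and limit the passage of water and solutes.

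Total counts lay between 24682611 and 26669024 in SDS libraries and between 22033866 and 29802362 in control libraries. Mitochondrially encoded genes took 1.89% to 2.81% of the counts in SDS libraries and 2.23% to 4.22% in control libraries. The libraries also differed in the tissues they held. Mean suprabasal epithelial markers (log2 CPM, where CPM is the count scaled to library size) differed from the mean of the controls by -0.31 (SDS library 1), -0.29 (SDS library 2) and 0.71 (SDS library 3), and by between -0.90 (control library 4) and 0.58 (control library 3) in controls. Skeletal muscle markers differed by -0.42, -1.07 and -1.22 in the same order, all below the controls (-0.32 to 0.45), although 0 of 12 passed the test singly. Adipocyte markers ran from -2.24 to 1.58 in SDS libraries and from -3.53 to 3.37 in controls. SDS library 3 stood apart in its group: neutrophil markers, of which S100a8 and S100a9 are also made by keratinocytes, exceeded the mean of the controls by 4.95 (SDS library 1), 5.29 (SDS library 2) and 0.98 (SDS library 3). In whole-organ RNA, fewer cells of a type and less RNA per cell cannot be told apart.

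Promoter sequences are shown for the subunits of serine palmitoyltransferase, because 2 of the genes with the clearest values, Sptlc1 and Sptssa, are among them. Sptlc1 and Sptlc2 encode the catalytic pair, Sptssa and Sptssb small activating subunits, and Sptlc3 an alternative to Sptlc2 that accepts other acyl-CoA chains. Each window has 300 bases, most of them before and the last ones after the annotated start in RefSeq (GRCm38.p6, the assembly also called mm10). The windows are chr13:53377312-53377611 on the minus strand for Sptlc1, chr12:87388306-87388605 on the minus strand for Sptlc2, chr12:54656523-54656822 on the minus strand for Sptssa, chr3:69859845-69860144 on the minus strand for Sptssb and chr2:139493663-139493962 on the plus strand for Sptlc3. Capitals mark matches on either strand to the GC box (GGGCGG) or the CCAAT box.
Sptlc1: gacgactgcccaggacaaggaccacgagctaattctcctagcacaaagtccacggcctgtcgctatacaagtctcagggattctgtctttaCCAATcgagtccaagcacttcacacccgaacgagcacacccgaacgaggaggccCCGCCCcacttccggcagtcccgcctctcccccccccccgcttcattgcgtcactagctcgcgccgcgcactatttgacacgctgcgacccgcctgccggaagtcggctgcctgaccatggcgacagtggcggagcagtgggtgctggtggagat
Sptlc2: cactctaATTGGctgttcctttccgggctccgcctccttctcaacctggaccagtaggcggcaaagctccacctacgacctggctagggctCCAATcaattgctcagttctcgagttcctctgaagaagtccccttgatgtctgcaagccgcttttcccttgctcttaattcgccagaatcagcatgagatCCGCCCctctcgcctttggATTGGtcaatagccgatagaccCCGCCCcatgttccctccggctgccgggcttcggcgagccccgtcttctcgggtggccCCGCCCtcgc
Sptssa: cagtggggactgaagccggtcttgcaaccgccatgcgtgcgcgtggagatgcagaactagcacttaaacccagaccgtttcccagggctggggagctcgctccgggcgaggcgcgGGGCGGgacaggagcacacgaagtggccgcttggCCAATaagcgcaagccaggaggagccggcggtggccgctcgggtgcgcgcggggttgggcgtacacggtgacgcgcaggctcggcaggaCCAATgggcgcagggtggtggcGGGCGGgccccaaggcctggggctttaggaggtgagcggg
Sptssb: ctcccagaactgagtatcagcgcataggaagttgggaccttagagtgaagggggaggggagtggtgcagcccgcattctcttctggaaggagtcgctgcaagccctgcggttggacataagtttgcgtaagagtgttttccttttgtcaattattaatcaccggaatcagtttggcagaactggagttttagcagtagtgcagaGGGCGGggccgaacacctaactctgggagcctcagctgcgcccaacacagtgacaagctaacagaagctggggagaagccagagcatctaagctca
Sptlc3: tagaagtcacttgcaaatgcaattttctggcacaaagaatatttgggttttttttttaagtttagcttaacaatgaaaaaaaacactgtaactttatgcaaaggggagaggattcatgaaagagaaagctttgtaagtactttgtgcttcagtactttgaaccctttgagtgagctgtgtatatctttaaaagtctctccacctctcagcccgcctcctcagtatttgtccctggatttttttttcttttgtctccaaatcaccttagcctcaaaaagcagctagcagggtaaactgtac
Both motifs occurred in the Sptlc1, Sptlc2 and Sptssa windows. Sptlc1 held 1 GC box and 1 CCAAT box, Sptlc2 held 3 and 3, and Sptssa held 2 and 2, with no overlap among the matches. The Sptssb window held 1 GC box and 0 CCAAT boxes, and the Sptlc3 window held neither motif. GC content was 62.3% for Sptlc1, 59.3% for Sptlc2, 70.0% for Sptssa, 52.7% for Sptssb and 37.3% for Sptlc3. Among 32851 RefSeq windows of this length, 35.7% held a GC box and 37.4% a CCAAT box. The TATA box, spelled TATAAA, matched in 0 of these 5 windows and in 13.6% of all windows. The AP-1 site, spelled TGANTCA, matched in 0 of 5 and in 7.81%, and the E-box, spelled CACGTG, in 0 of 5 and in 7.15%. Outside the transferase, the Smpd1 window also held both motifs, with 4 GC boxes and 1 CCAAT box. Cers4, Degs2 and Ugcg windows held GC boxes but no CCAAT box, and Cers3 and Degs1 windows held neither motif. The share of all windows with both motifs was not counted, and a link between motifs and fold changes was not tested. A match is a run of letters and not a measured binding site.

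Serine palmitoyltransferase RNA was higher after SDS in its shared subunit and in 1 small subunit. Sptlc1 (chromosome 13, 53332716 to 53377365, minus strand, protein-coding), which every form of the enzyme needs, measured 158, 176 and 179 CPM in SDS libraries 1, 2 and 3, against 88.6, 108, 121, 78.2 and 95.3 CPM in control libraries 1 to 5. All SDS libraries lay above all controls. Sptlc1 rose 1.74-fold, a log2 fold change of 0.80 ± 0.15 (SE). Its adjusted p was 0.0489 (edgeR quasi-likelihood, adjusted by Benjamini-Hochberg over all genes tested). The call sat close to the threshold of 0.05: edgeR gave an adjusted p of 0.0836 and 0.193 without SDS library 1 or 2, and of 0.137, 0.114, 0.0606, 0.0551 and 0.119 without control library 1, 2, 3, 4 or 5, with log2 fold changes of 0.74 to 0.89 over these fits and the fit without SDS library 3 (adjusted p = 0.0350). With limma-voom the adjusted p was 0.0550.

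Sptlc2 (chromosome 12, 87305058 to 87388355, minus strand) encodes the usual catalytic partner of Sptlc1. It measured 151, 147 and 212 CPM in SDS libraries 1, 2 and 3, against 99.4, 119, 131, 91.5 and 114 CPM in control libraries 1 to 5. The groups did not overlap, and SDS library 3 was the highest. Its log2 fold change was 0.61 ± 0.16 (SE), which did not pass (edgeR adjusted p = 0.102), while DESeq2 called it with an adjusted p of 0.0205.

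Sptlc3 (chromosome 2, 139493913 to 139637674, plus strand) had nearly equal means in both groups. It measured 55.0, 55.1 and 121 CPM in SDS libraries 1, 2 and 3, against 63.1, 98.9, 99.9, 41.4 and 74.7 CPM in control libraries 1 to 5. SDS libraries 1 and 2 lay among the lower controls and SDS library 3 lay above every control. The log2 fold change was 0.03 ± 0.35 (SE), not past the threshold, and it was -0.45 without SDS library 3.

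Of the small subunits, Sptssa passed the test and Sptssb did not. Sptssa (chromosome 12, 54645374 to 54656572, minus strand) measured 78.7, 79.2 and 72.8 CPM in SDS libraries 1, 2 and 3, against 44.9, 49.9, 49.2, 47.0 and 48.2 CPM in control libraries 1 to 5. Its values were tight in both groups and did not overlap. Sptssa rose 1.61-fold, by 0.68 ± 0.08 (log2, SE), with an edgeR adjusted p of 0.0169. The log2 fold change stayed between 0.66 and 0.73 in 20 other settings. By edgeR the call was lost without SDS library 2 (adjusted p = 0.114) or control library 1 (0.0742), 2 (0.0718), 3 (0.0522) or 5 (0.0711). It was also lost with the skeletal muscle markers as a covariate (0.508). In libraries 1 to 3 alone it was lost with a block term for the library number (0.0754) and without that term (0.138). Sptssb, the small subunit that lets the enzyme use longer acyl-CoA, measured 157, 160 and 621 CPM in SDS libraries 1, 2 and 3, against 253, 327, 378, 145 and 251 CPM in control libraries 1 to 5. Its log2 fold change of 0.21 ± 0.49 did not pass and turned to -0.77 without SDS library 3. The Ormdl proteins restrain the transferase, and Ormdl1, Ormdl2 and Ormdl3 had log2 fold changes of -0.09 ± 0.17, 0.31 ± 0.20 and -0.24 ± 0.37 (SE), none past the threshold by edgeR.

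**Figure D1:**
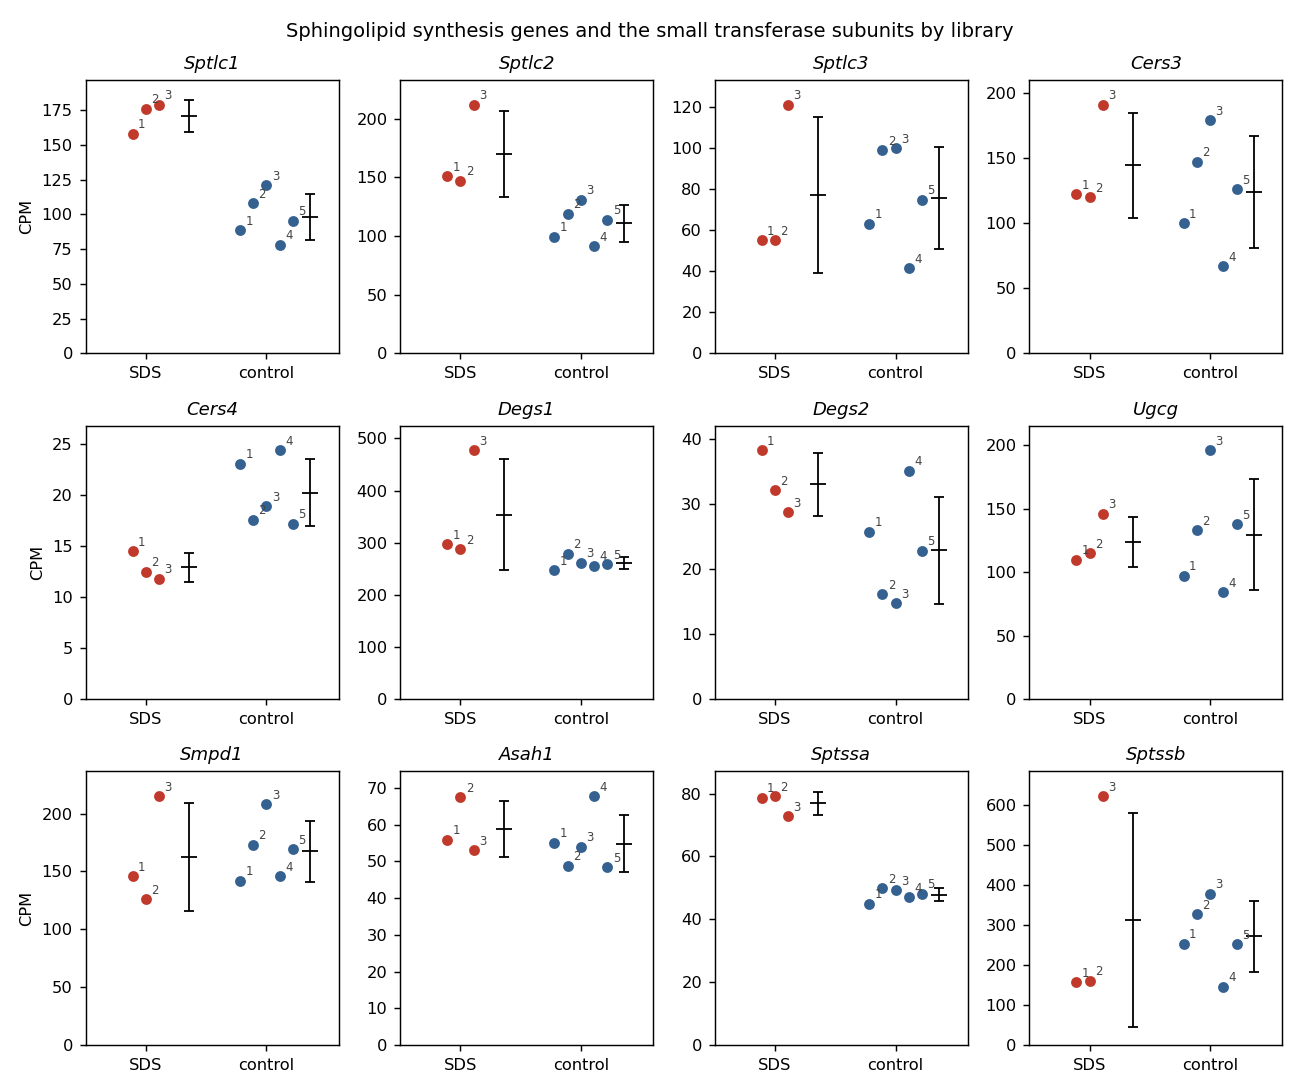
Normalised counts (CPM, vertical axes) of the 10 genes and of the small subunit genes Sptssa and Sptssb in each library; red points are SDS libraries, blue points control libraries, numerals give the library number, and black bars show the group mean with 1 SD (n = 3 and n = 5). Sptlc1, Sptlc2, Degs1 and Sptssa lie higher in every SDS library than in any control library, Cers4 lies lower in every SDS library, and the other panels overlap.

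Neither ceramide synthase gene passed the test, with Cers4 lower in every SDS library and Cers3 overlapping between the groups. Cers3 (chromosome 7, 66743504 to 66823691, plus strand) makes ceramides with ultra-long chains and is needed for the skin barrier. It measured 122, 120 and 191 CPM in SDS libraries 1, 2 and 3, against 99.7, 147, 179, 66.7 and 126 CPM in control libraries 1 to 5, with a log2 fold change of 0.23 ± 0.31 (SE) that did not pass. The groups overlapped widely. Cers4 (chromosome 8, 4493026 to 4531680, plus strand), which prefers shorter long-chain acyl-CoA, measured 14.5, 12.5 and 11.8 CPM in SDS libraries 1, 2 and 3, against 23.1, 17.6, 18.9, 24.4 and 17.2 CPM in control libraries 1 to 5. Every SDS library lay below every control. The log2 fold change of Cers4 was -0.64 ± 0.15 (SE), short of the threshold (edgeR adjusted p = 0.0809), with DESeq2 at an adjusted p of 0.00576. Exons of Cers4 share 886 bases with Vmn2r-ps89 and 214 bases with Gm36956 on the opposite strand, so its count may hold reads of these, since the strand setting of the counting is not given in the sources used here.

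Both desaturase genes had a higher mean in SDS libraries, and neither passed the test. Degs1 (chromosome 1, 182275772 to 182282804, minus strand) introduces the double bond that makes ceramide from dihydroceramide. It measured 297, 288 and 477 CPM in SDS libraries 1, 2 and 3, against 247, 279, 262, 256 and 259 CPM in control libraries 1 to 5. The groups did not overlap, but SDS libraries 1 and 2 were only just above the highest control. Its log2 fold change was 0.44 ± 0.17 (SE), not past the threshold, and 0.17 without SDS library 3. Degs2 (chromosome 12, 108686792 to 108702306, minus strand) can also add a hydroxyl group and so makes phytoceramide, a form abundant in epithelia. It measured 38.2, 32.1 and 28.7 CPM in SDS libraries 1, 2 and 3, against 25.7, 16.1, 14.7, 35.1 and 22.8 CPM in control libraries 1 to 5, where control library 4 overlapped the SDS group. The log2 fold change was 0.53 ± 0.27 (SE), not past the threshold. Degs2 shares 485 exonic bases with Evl on the opposite strand, so its count may hold reads of Evl.

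The enzymes that use or release ceramide showed little difference between the group means. Ugcg (chromosome 4, 59189257 to 59222833, plus strand), which makes glucosylceramide, measured 110, 115 and 146 CPM in SDS libraries 1, 2 and 3, against 97.2, 133, 196, 84.3 and 138 CPM in control libraries 1 to 5. Smpd1 (chromosome 7, 105554360 to 105558389, plus strand), the acid sphingomyelinase of lysosomes, measured 146, 126 and 215 CPM in SDS libraries 1, 2 and 3, against 142, 173, 208, 146 and 169 CPM in control libraries 1 to 5. Asah1 (chromosome 8, 41340197 to 41374773, minus strand), the acid ceramidase, measured 55.9, 67.6 and 53.0 CPM in SDS libraries 1, 2 and 3, against 55.1, 48.9, 54.0, 67.8 and 48.5 CPM in control libraries 1 to 5. Within these genes all group ranges overlapped. The log2 fold changes were -0.07 ± 0.26 for Ugcg, -0.05 ± 0.20 for Smpd1 and 0.10 ± 0.14 for Asah1 (SE), none past the threshold by edgeR.

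Over the 10 genes, all of which passed the filter on low counts, 1 was called higher and 0 lower. Over all 17179 genes tested, 1.05% were called, 0.623% higher and 0.425% lower. SDS and control ranges lay apart for 4 of the 10 genes (Sptlc1, Sptlc2 and Degs1 higher, Cers4 lower), where 13.4% of all tested genes had ranges apart, 6.49% with SDS higher and 6.89% with SDS lower. The median log2 fold change was 0.16 over the 10 genes and -0.005 over all genes tested. DESeq2 called 3 of the 10, Sptlc1, Sptlc2 and Cers4, with 8.81% of its 17970 tested genes called.

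Levels of different genes were compared on a scale per length (TPM, from the counts and the counted length of each gene). In SDS libraries the mean level ran from 328 ± 70.8 TPM for Degs1 to 2.58 ± 0.399 TPM for Cers4 (SD, n = 3), and in control libraries from 248 ± 16.4 TPM for Degs1 to 4.10 ± 0.960 TPM for Cers4 (SD, n = 5). The order of control means was Degs1, Smpd1, Sptlc1, Cers3, Sptlc3, Ugcg, Asah1, Sptlc2, Degs2 and Cers4. Degs1 lay above Smpd1, Smpd1 above Sptlc1, Sptlc2 above Degs2 and Degs2 above Cers4 with no overlap of the control ranges. The ranges of the neighbours from Sptlc1 to Sptlc2 in this order overlapped. Within single control libraries, Cers3 lay above Sptlc3 in 5 of 5. Sptlc1 lay above Cers3 in 2, Sptlc3 above Ugcg in 2, Ugcg above Asah1 in 4 and Asah1 above Sptlc2 in 3. The place of Cers4 below Degs2 leans on its counted length of 12264 bases, against 3574 for Degs2. By CPM Cers4 lay above Degs2 in control libraries 2 (17.6 against 16.1) and 3 (18.9 against 14.7), and below it in control libraries 1, 4 and 5. How much of that length the transcripts of this tissue hold was not tested. By mean level in SDS libraries Sptlc1 (160 ± 15 TPM) stood before Smpd1 (117 ± 23.6 TPM), against 91.8 ± 8.19 TPM for Sptlc1 and 123 ± 11.6 TPM for Smpd1 in controls, and Sptlc2 stood before Asah1.

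**Figure D2:**
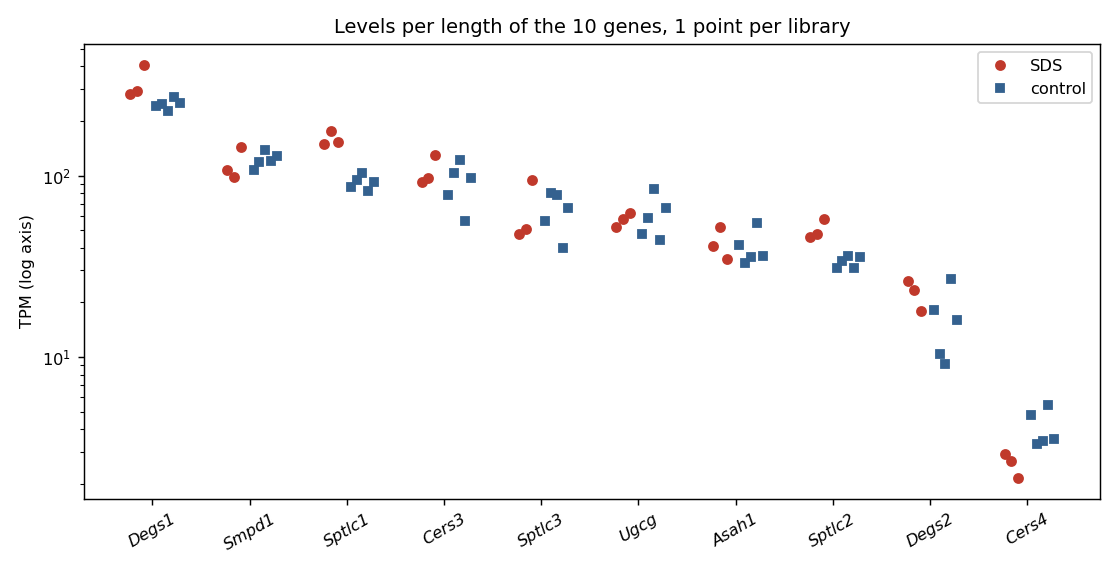
Levels per length (TPM, log axis) of the 10 genes, ordered by their mean in control libraries; red circles are the 3 SDS libraries and blue squares the 5 control libraries. Degs1 is the highest in both groups and Cers4 the lowest, with Cers4 between 2.15 and 2.93 TPM in SDS libraries and between 3.30 and 5.45 TPM in control libraries. The place of Cers4 leans on its counted length of 12264 bases.

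The balance between alternative enzymes was taken as a ratio within each library. Sptlc3 made up 50.9%, 51.6% and 61.9% of the summed Sptlc2 and Sptlc3 level per length in SDS libraries 1, 2 and 3, against 64.4%, 70.3%, 68.5%, 56.3% and 65.1% in control libraries 1 to 5. SDS library 3 lay above control library 4, so the groups overlapped. The log2 ratios that follow were taken from CPM, which is not scaled to length. Sptlc2 has a counted length of 8115 bases and Sptlc3 of 2845. The sign of a ratio therefore does not say which gene had the higher level per length. The log2 ratio of Sptlc3 to Sptlc2 averaged -1.22 ± 0.36 in SDS libraries and -0.61 ± 0.33 in control libraries (SD, n = 3 and n = 5), a difference of -0.61 (exact permutation test over 56 splits, two-sided, p = 0.0714, 0.188 after Benjamini-Hochberg adjustment over 3 ratios). The log2 ratio of Cers3 to Cers4 averaged 3.40 ± 0.49 in SDS libraries and 2.52 ± 0.74 in controls (exact permutation p = 0.125, adjusted 0.188). The log2 ratio of Degs2 to Degs1 averaged -3.37 ± 0.58 in SDS libraries and -3.55 ± 0.54 in controls (exact permutation p = 0.625, adjusted 0.625). None passed, and the smallest p this design allows is 0.0179.

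Within the controls alone, several of these genes put the libraries in the same order as an epithelial keratin gene. Krt13, a suprabasal keratin of the esophagus, measured 41997, 44538 and 71974 CPM in SDS libraries 1, 2 and 3, against 34892, 53020, 62960, 19388 and 46740 CPM in control libraries 1 to 5. From low to high, Krt13 put the controls in the order 4, 1, 5, 2, 3. Sptlc1, Sptlc2, Sptlc3 and Cers3 put them in the same order, and Degs2 in the exact reverse. Over all tested genes 7.86% shared the order and 6.58% had its reverse. This view was chosen after the values were seen, and 5 libraries of 1 order are a description only. Adipocyte markers ran in the exact reverse of the Krt13 order. Their mean differed from that of the controls by 3.37, 1.33, 0.70, -1.87 and -3.53 (log2) in control libraries 4, 1, 5, 2 and 3. The parts of epithelium and fat in these orders were not tested.

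Set against Krt13, the genes fell into different patterns. SDS libraries 1 and 2 had Krt13 levels between those of control libraries 1 and 5. At these levels Cers3 measured 122 and 120 CPM in SDS libraries 1 and 2, against 99.7 and 126 CPM in control libraries 1 and 5, inside the control values. Sptlc1 measured 158 and 176 CPM in the same SDS libraries, against 88.6 and 95.3 CPM in the same controls, above them. Degs2 was also above them, at 38.2 and 32.1 CPM against 25.7 and 22.8 CPM. Cers4 was below, at 14.5 and 12.5 CPM against 23.1 and 17.2 CPM, and so was Sptlc3, at 55.0 and 55.1 CPM against 63.1 and 74.7 CPM.

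**Figure D3:**
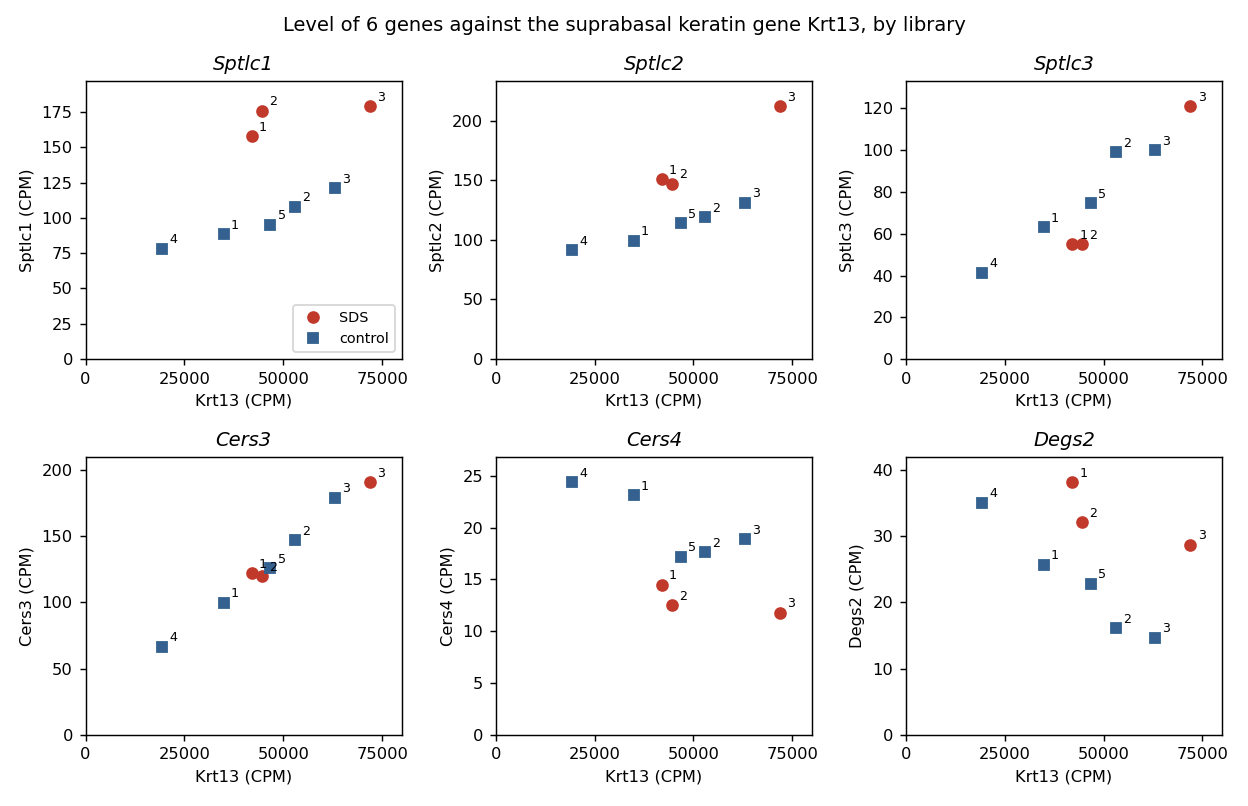
Level (CPM, vertical axes) of 6 of the genes against Krt13 (CPM, horizontal axes); red circles are SDS libraries, blue squares control libraries, and numerals give the library number. Sptlc1 and Sptlc2 rise with Krt13 among the controls with the SDS libraries above that line, Cers3 lies on 1 line in both groups, Cers4 lies below the controls in SDS libraries, and Degs2 falls with Krt13 among the controls with the SDS libraries above.

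A fit across all genes with the mean of the basal and suprabasal epithelial markers as a covariate called 4 of the 10 genes. Sptlc1 rose by 0.72 ± 0.09, Sptlc2 by 0.50 ± 0.09 and Degs2 by 0.78 ± 0.13, and Cers4 fell by 0.55 on the log2 scale (SE 0.11), with edgeR adjusted p of 0.00681 for Sptlc1, 0.0217 for Sptlc2, 0.0142 for Degs2 and 0.0259 for Cers4. In that fit 8.97% of all tested genes were called. The counts of Degs2 and Cers4 may hold reads of genes on the opposite strand, as given above. The covariate includes Krt14, itself called higher in SDS (2.55 ± 0.47), and with suprabasal markers alone, a choice made after the values were seen, the same 4 genes were called, with 12.8% of all genes called. With the skeletal muscle markers as the covariate 0 of 10 and 0 of 17179 genes were called by edgeR, and Sptlc1 stood at 0.67. The muscle mean did not overlap between the groups, so that covariate and SDS can be told apart only in part.

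Beyond the 10 genes, 79 other sphingolipid genes in 6 lists were matched, and 77 were tested. By the edgeR quasi-likelihood test 1 rose, Sptssa, 0 fell and 76 did not pass, a share near the 1.05% called over all genes tested. The lists had median log2 fold changes between -0.05 and 0.15. The lists were other synthesis genes and their regulators (1 of 10 rose), head group enzymes (0 of 6), glycosphingolipid extension (0 of 8), breakdown (0 of 21), sphingosine 1-phosphate (0 of 12) and fatty acid elongation with acylceramide genes (0 of 20). In the breakdown list 18 of 21 log2 fold changes were positive, with a median of 0.15, and 8470 of 17179 were positive over all genes. Several of these positive values were smaller than their SE, such as those of Smpd2 (0.03 ± 0.13) and Psap (0.03 ± 0.21). Ranges lay apart for 2 of the 21, both with SDS higher, against 13.4% of all tested genes in either direction.

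The extremes of each list were as follows. Among synthesis genes Cers1, the ceramide synthase known from muscle and brain, was the lowest at -0.90 ± 0.32 (log2, SE). Cers1 measured 1.61, 2.32 and 0.959 CPM in SDS libraries 1, 2 and 3, against 2.39, 2.94, 3.14, 2.67 and 4.12 CPM in control libraries 1 to 5; it did not pass, and it shares 1349 exonic bases with Gdf1 on the same strand, so the division of reads is uncertain. The mean of the skeletal muscle markers was also lower in the SDS libraries, and its part in the Cers1 values was not tested.

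Among head group enzymes the extremes were the ceramide kinase gene Cerk (0.05 ± 0.15) and Samd8 (-0.26 ± 0.16), and among sphingosine 1-phosphate genes the kinase gene Sphk1 (0.44 ± 0.22) and the receptor gene S1pr3 (-0.55 ± 0.50). St8sia1, which makes the ganglioside GD3, measured 0.825, 1.23 and 0.542 CPM in SDS libraries 1, 2 and 3, against 0.341, 0.193, 0.0369, 0.203 and 0.229 CPM in control libraries 1 to 5. The groups did not overlap at these low levels, and its log2 fold change of 2.08 ± 0.50 did not pass (edgeR quasi-likelihood adjusted p = 0.0810). Its raw counts were 21, 35 and 13 in SDS libraries 1, 2 and 3, against 10, 4, 1, 6 and 6 in control libraries 1 to 5. St8sia1 passed the filter on low counts only through the SDS libraries, so higher values there were partly built into its being tested. St3gal5, the GM3 synthase gene, was the lowest of its list at -0.28 ± 0.46.

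In the breakdown list Smpdl3b, a relative of the acid sphingomyelinase, was the highest at 0.81 ± 0.26, with 23.5, 18.1 and 25.3 CPM in SDS libraries 1, 2 and 3, against 10.2, 15.8, 17.7, 7.54 and 12.5 CPM in control libraries 1 to 5. It did not pass. The ceramidase gene Acer3 was the lowest at -0.12 ± 0.16. Among elongation and acylceramide genes Elovl5, an elongase of polyunsaturated chains, was the highest at 0.54 ± 0.17 and Fa2h, which hydroxylates fatty acids of sphingolipids, the lowest at -1.71 ± 1.05, neither past the threshold. Fa2h measured 0.472, 0.351 and 0.0834 CPM in SDS libraries 1, 2 and 3, against 0.887, 0.241, 0.222, 3.31 and 0.305 CPM in control libraries 1 to 5. The control mean of 0.993 CPM lay above every control but library 4, so the fold change and the rank of Fa2h lean on that library. Without it Fa2h was not among the genes tested, and with the epithelial covariate its value was -0.30.

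**Figure D4:**
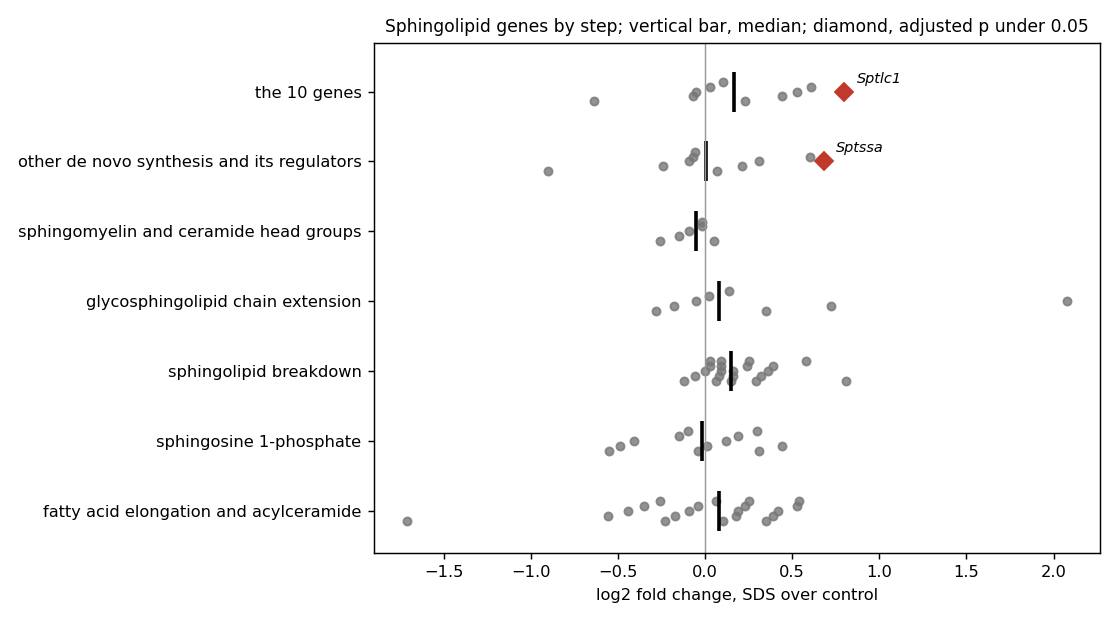
Fitted log2 fold change (SDS over control, horizontal axis) of each tested gene, by step of the pathway; grey points did not pass, red diamonds are genes with an edgeR adjusted p under 0.05, and black bars are list medians. Sptlc1 (0.80) and Sptssa (0.68) are the genes past the threshold, and medians lie between -0.05 and 0.16.

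With the epithelial covariate 8 of these 77 genes were called, 4 higher and 4 lower, named here after their values were seen. With 8.97% of all tested genes called in the same fit, this count is near the share over all genes. Sptssa (0.68 ± 0.07), St8sia1 (2.35 ± 0.48), Smpdl3a (0.45 ± 0.07) and Smpdl3b (0.66 ± 0.12) rose on the log2 scale (SE). St8sia1 passed the filter on low counts only through the SDS libraries, so its value is a description only. The lower genes were Aloxe3 (-0.78 ± 0.09) and Alox12b (-0.60 ± 0.10), lipoxygenases that oxidise the linoleate of acylceramide, Cyp4f39 (-0.38 ± 0.08), the hydroxylase of its ultra-long chain, and Spns2 (-0.61 ± 0.10), an exporter of sphingosine 1-phosphate. EdgeR quasi-likelihood adjusted p for these 8 genes ran from 0.00604 for Sptssa to 0.0270 for St8sia1. Without the covariate Aloxe3 measured 147, 148 and 251 CPM in SDS libraries 1, 2 and 3, against 222, 299, 372, 135 and 309 CPM in control libraries 1 to 5, groups that overlapped, with a log2 fold change of -0.56 ± 0.33 that did not pass. With suprabasal markers alone Cyp4f39 did not pass (-0.14).

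Among tested genes with an established symbol, the profile of Sptlc1 over the 8 libraries was closest to those of Klk7, Gss, Nucb2, Trim13 and Acot7. Genes without a symbol, or with the name of a gene model or clone, were left out of this ranking. Likeness was the root mean square difference of centred log2 CPM over the 8 libraries, which was 0.088 for Klk7, 0.095 for Gss, 0.114 for Nucb2, 0.121 for Trim13 and 0.126 for Acot7, against 0.167 for Sptlc2 and 0.175 for Sptssa. Klk7, a serine protease of shedding epithelium, measured 159, 181 and 205 CPM in SDS libraries 1, 2 and 3, against 101, 116, 131, 94.4 and 113 CPM in control libraries 1 to 5. Gss, the glutathione synthetase gene, measured 82.9, 79.1 and 79.4 CPM in SDS libraries 1, 2 and 3, against 41.7, 57.1, 61.4, 36.0 and 47.7 CPM in control libraries 1 to 5. Acot7, an acyl-CoA thioesterase gene, measured 56.7, 54.6 and 55.3 CPM in SDS libraries 1, 2 and 3, against 27.5, 38.8, 32.9, 25.5 and 28.2 CPM in control libraries 1 to 5. Because likeness to Sptlc1 chose these genes, higher values in SDS libraries were built into the choice, and no test is given for them. Gss shares between 322 and 395 exonic bases with each of 3 genes on the opposite strand.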

How the data were processed

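RNA of whole mouse esophagus was measured in 3 SDS and 5 control libraries, grouped by the titles in the labels. The authors deposited raw counts per gene, 1 table per library. The tools named in the submitters' processing notes are STAR 2.6.1c and Subread, with bcl2fastq and FastQC, and the build is mm10. For the annotation release, Subread version, strand setting and multiply mapped reads, the settings were not given in the sources used here. The counted length of each gene comes from another column of the deposited tables. Per the labels' protocols, poly(A)-selected RNA went into NEBNext Ultra II libraries; that text names cell pellets, whereas the design names whole esophagus.

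Symbols matched 48970 of 49315 identifiers. Counts were fitted in R 4.3.3 with edgeR 4.0.16: filterByExpr (minimum count 10, minimum total 15) left 17179 genes, libraries were scaled by TMM, and glmQLFit (robust) and glmQLFTest gave two-sided p-values, adjusted by Benjamini-Hochberg over all tested genes at a threshold of 0.05. Each SE was taken as log2 fold change over the root of the F statistic. CPM used TMM-scaled library sizes, log2 CPM a prior count of 2, and ratios a pseudocount of 0.5 CPM. The common biological coefficient of variation was 29.3%. At these depths 3 counts equal 0.101 to 0.144 CPM, a floor for counting error only. Libraries of a group were not copies: chi-square values per degree of freedom were 23.1 or more. The procedure was tested on simulated data.

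The members and lists were chosen with earlier results of these data known. Named genes were the 10 members, called genes and the extremes of the other lists, and the 5 profiles nearest to Sptlc1 among genes with an established symbol. Sptssb, the Ormdl genes and the genes called with the epithelial covariate lie outside this rule and were chosen after their values were seen. Cert1 was matched under the symbol Col4a3bp. Promoters were matched for 9 of the 10 genes (RefSeq, GRCm38.p6). Alternatives were other scalings and filters, DESeq2 1.42.0, limma-voom 3.58.1, marker covariates, a replicate block, other pseudocounts and leaving out each library.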

Additional observations from a re-analysis of the deposited data

Results flagged for a closer look

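Over the 5 controls, 1 of 30 values checked had a library far from the rest by Dixon's criterion. Fa2h, the fatty acid hydroxylase gene, measured 3.31 CPM in control library 4 and between 0.222 and 0.887 CPM in the other controls. Adipocyte markers in control library 4 lay 3.37 (log2) above the control mean, and their part in the Fa2h value was not tested. Chance flags about 1 in 20 groups.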

How the results depend on the processing

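The number of genes called depended on the setting: 180 with all libraries, 1584 with DESeq2, 0 with the skeletal muscle covariate, 1541 with the epithelial covariate, 2193 with the suprabasal covariate (added after the data were seen), 0 with the replicate block on libraries 1 to 3, 2 on these libraries without the block term, and 4 to 1222 with a library left out. Of the 10 genes 1 was called, against 3, 0, 4, 4, 0 and 0 in the same settings, 0 with limma-voom and 0 to 1 with a library left out. Of the other sphingolipid genes 1 was called, against 3, 0, 8, 12, 0 and 0, and 0 to 3 with a library left out. Sptlc1 kept its sign in 20 settings (0.67 to 0.89) and its call in 9, and Sptssa its call in 12.

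Among uncalled genes the sign turned for Sptlc3 (-0.01 with limma-voom, -0.42 with the muscle covariate, -0.25 epithelial, -0.05 suprabasal, -0.26 with the replicate block and -0.18 without its term), Sptssb (-0.04, -0.65, -0.25, -0.07, -0.35 and -0.03), Cers3 (-0.12, muscle), Cers6 (-0.08, muscle), Cerk (-0.15 muscle, -0.03 epithelial, -0.00 block, -0.01 without its term) and St3gal5 (0.18 epithelial, 0.26 block, 0.21 without its term). With a library left out the ranges were -0.45 to 0.22 for Sptlc3, -0.02 to 0.40 for Cers3, -0.20 to 0.13 for Ugcg, -0.30 to 0.11 for Smpd1, -0.01 to 0.20 for Asah1, -0.44 to 0.10 for St3gal5, -0.30 to 0.07 for Acer3, -0.03 to 0.11 for Cerk, -0.77 to 0.53 for Sptssb, and -0.04 to 0.50 for the Degs2 to Degs1 ratio. The cause was not tested. Same-numbered libraries deviated together with r of 0.31, -0.01 and 0.31. SDS library 1 correlated best with control library 4 (r = 0.51), and SDS library 3 with control library 3. Differences of any kind among libraries enter r, so this check cannot settle whether the numbers pair them.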
